A study of Mus musculus with 35 samples.

Results

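A set of 10 genes that mark the epithelium of the choroid plexus were followed through RNA-seq libraries made from mouse striatum. They are Ttr, Kl, Folr1, Aqp1, Clic6, Otx2, Slc4a5, Sostdc1, Cldn2 and Slc13a4, and they were taken by symbol from the gene count table, which gave 10 of 39109 entries, or 10 of the 32863 genes kept after spike-ins, short genes and mitochondrial rRNA had been left out. The question put to them was whether the other 9 varied with Ttr from library to library, and what that did to their comparison between genotypes. The choroid plexus is a sheet of epithelium that hangs in the brain ventricles and secretes cerebrospinal fluid, and one of its fronds lies in the lateral ventricle, against the wall that the striatum forms. Its cells are joined by tight junctions, carry ion, water and vitamin transporters on their faces, and put transthyretin, the product of Ttr and a carrier of thyroid hormone and retinol-binding protein, into the fluid in large amounts. Ttr is for that reason often read as a sign that plexus epithelium has come along with a brain dissection.

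The study asked how loss of the histone deacetylase HDAC2 in medium-spiny neurons (MSNs), the principal neurons of the striatum, alters expression in mice with and without an expanded Huntington's disease CAG repeat. One striatal library was sequenced from each of 35 mice aged 21.71 to 23 weeks, in 4 groups. The floxed Hdac2 line came from a mixed C57BL/6/129SeEv background and had not been fully backcrossed to C57BL/6J, so the mice were not of one uniform background. Htt+/+ mice carry 2 wild-type huntingtin alleles with 7 CAGs, and HttQ111/+ mice carry 1 wild-type allele and 1 knock-in allele, with 110 to 144 CAGs in these animals. Hdac2 KO mice are homozygous for a floxed Hdac2 allele and carry the D9-Cre transgene, in which a fragment of Ppp1r1b, the gene for DARPP-32, drives Cre in MSNs from young adulthood on. The study treats the deletion as specific to MSNs, and the HDAC2-positive cells left in KO striatum were DARPP-32 negative. It reports no check of HDAC2 in the choroid plexus. For mice lacking Hdac3, a related gene deleted with the same transgene, the paper proposes that Cre may also act outside MSNs. Hdac2 WT mice have no Cre, so that the floxed alleles the study's records give them stay whole, and for that reason Cre and deletion cannot be told apart between WT and KO. There were 8 Htt+/+ Hdac2 WT mice (3 females), 7 HttQ111/+ Hdac2 WT mice (3 females), 9 Htt+/+ Hdac2 KO mice (4 females) and 11 HttQ111/+ Hdac2 KO mice (3 females).

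Between 50339179 and 76939791 reads per library (median 56630712) were counted on the kept genes. All levels below are CPM (read counts scaled to a common library size by TMM), and 3 counts in a library of median size come to 0.0532 CPM. The whole-gene count of Hdac2, which takes in every cell type of the striatum, ranged from 97.6 to 107 CPM in Htt+/+ Hdac2 WT, 95.5 to 111 CPM in HttQ111/+ Hdac2 WT, 89.4 to 99.2 CPM in Htt+/+ Hdac2 KO and 89.8 to 101 CPM in HttQ111/+ Hdac2 KO, so KO medians were lower and the ranges overlapped. RNA extraction dates nearly followed Hdac2 genotype. Of the 6 dates, 24 May held WT libraries only, 26 May, 31 May and 3 June held KO libraries only, and 25 and 27 May held 5 WT libraries and 1 KO library each. Among the 140 pairs of libraries within a group, none agreed closely enough to be repeats of a single library.

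The members were placed on GRCm38 by the coordinates of the count table. Kl lies on chr5:150952607-150993809, Folr1 on chr7:101858331-101870787, Aqp1 on chr6:55336432-55348555, Clic6 on chr16:92485736-92541243, Otx2 on chr14:48657679-48667644, Slc4a5 on chr6:83219828-83304945, Sostdc1 on chr12:36314169-36318452, Cldn2 on chrX:139800828-139809101 and Slc13a4 on chr6:35267957-35308129. Aqp1, Slc4a5 and Slc13a4 are on chromosome 6, far apart, and each of the others is alone on its chromosome. Counts are of whole genes, and whether reads were counted by strand is not given in the sources used here. Ttr is overlapped by Gm16090, with 0 to 4 counts per library, and Clic6 by 2410124H12Rik, with 0 to 8 counts, while the other 8 members have no overlapping gene in the table.

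Because most of these genes moved together, their promoters were read for a letter pattern that the homeodomain protein OTX2, itself a member and a regulator of plexus development and upkeep, is known to bind. RefSeq promoter sequences (GRCm38.p6) were held for Kl, Aqp1, Otx2, Slc4a5, Cldn2 and Slc13a4, and none was read for Folr1, Clic6, Sostdc1 or Ttr. The motif TAATCC, searched on both strands (GGATTA on the other) and overlapping no other motif searched, occurred in 6.25% of 32851 promoter windows of 250 bases, or in at least 1 window of 7.21% of 27025 genes. Of the 6 members it occurred in 1, Otx2 itself, in 1 of the 4 windows of that gene. The Otx2 match is shown as 30 bases around it, with the motif in capitals, and lies at position −211 from an annotated start on the minus strand. It is followed by the windows of Kl, Aqp1 and Cldn2, which stand for members that followed Ttr strongly, moderately and at the limit of detection and which hold no match, all written 5′ to 3′ in the direction of the gene.
Otx2 match (chr14:48665303-48665332, minus strand): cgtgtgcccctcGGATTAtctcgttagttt
Kl promoter (chr5:150952357-150952606, plus strand): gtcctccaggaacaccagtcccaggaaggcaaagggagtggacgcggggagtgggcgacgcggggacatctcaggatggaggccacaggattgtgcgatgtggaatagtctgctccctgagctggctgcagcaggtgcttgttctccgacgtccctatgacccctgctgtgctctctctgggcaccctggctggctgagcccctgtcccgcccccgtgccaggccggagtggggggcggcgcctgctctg
Aqp1 promoter (chr6:55336049-55336298, plus strand): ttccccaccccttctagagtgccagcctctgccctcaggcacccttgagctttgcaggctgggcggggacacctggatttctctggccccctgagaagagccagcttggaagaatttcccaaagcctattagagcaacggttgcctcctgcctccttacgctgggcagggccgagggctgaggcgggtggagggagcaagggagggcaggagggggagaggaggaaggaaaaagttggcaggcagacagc
Cldn2 promoter (chrX:139800558-139800807, plus strand): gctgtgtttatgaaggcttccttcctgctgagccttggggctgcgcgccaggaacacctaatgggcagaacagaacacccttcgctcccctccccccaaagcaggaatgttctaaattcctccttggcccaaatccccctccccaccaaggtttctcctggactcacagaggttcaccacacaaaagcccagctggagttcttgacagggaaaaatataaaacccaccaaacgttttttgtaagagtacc
A match is a description of the letters and not of binding, and the windows without a match say nothing of OTX2.

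Ttr, on chromosome 18 from 20665250 to 20674324, was the most uneven of the 10 genes. Its level ranged from 0.234 CPM (12 counts) in replicate 9 to 171 CPM (9158 counts) in replicate 1 of the same group, Htt+/+ Hdac2 WT, a 728-fold span among mice of one genotype. The next highest libraries were HttQ111/+ Hdac2 KO replicate 1 with 104 CPM and HttQ111/+ Hdac2 WT replicate 5 with 67.6 CPM, and the top 2 of the 35 libraries held 36.6% of the summed Ttr CPM.
In Htt+/+ Hdac2 WT the lowest, median and highest levels of Ttr were 0.234, 18.3 and 171 CPM (n = 8). In HttQ111/+ Hdac2 WT they were 4.58, 19.5 and 67.6 CPM (n = 7). In Htt+/+ Hdac2 KO they were 0.758, 2.82 and 14.7 CPM (n = 9), and this was the one group whose highest library stayed under the WT medians. In HttQ111/+ Hdac2 KO they were 0.568, 6.58 and 104 CPM (n = 11). The KO medians were thus the lower ones, and all 4 ranges overlapped. Over 10 CPM were found in 10 of 15 WT libraries and in 6 of 20 KO libraries, a count for which no test was run.

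**Figure D1:**
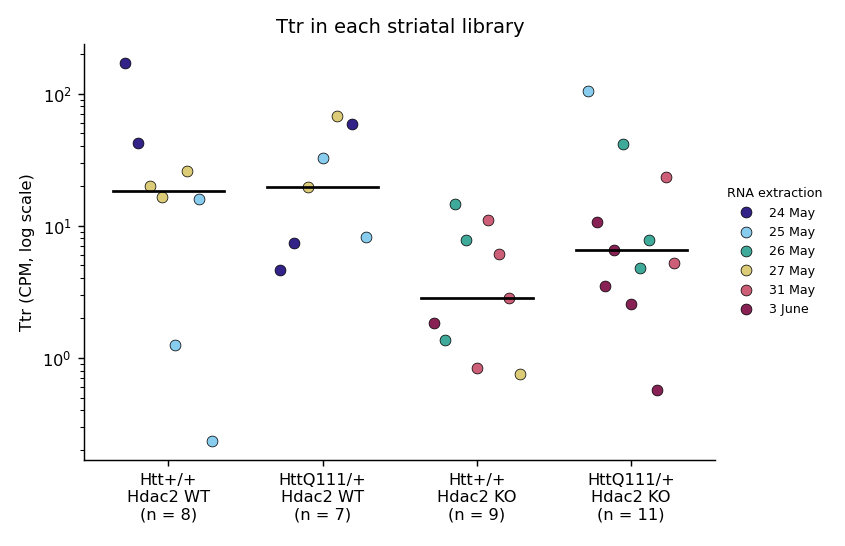
Ttr level of each of the 35 libraries (CPM, log axis) in the 4 genotype groups. Each point is 1 mouse, coloured by RNA extraction date, and bars are group medians. Every group spans more than 10-fold, and the highest and the lowest library both belong to Htt+/+ Hdac2 WT.

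The Ttr medians also followed the extraction date, being 42.3 CPM on 24 May (n = 5) and 12.0, 7.80, 19.8, 5.68 and 3.05 CPM on 25, 26, 27 and 31 May and 3 June (n = 6 each). The 2 dates with both Hdac2 genotypes pointed in opposite directions. The single KO library of 27 May, from an Htt+/+ mouse, had 0.758 CPM, under the 16.6 to 26.1 CPM of the 3 Htt+/+ Hdac2 WT libraries of that day. That of 25 May, from an HttQ111/+ mouse, had 104 CPM, over the 8.25 and 32.7 CPM of the 2 HttQ111/+ Hdac2 WT libraries beside it. Medians were 8.25 CPM in 13 females and 7.80 CPM in 22 males.

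Of the 9 other genes, 7 varied with Ttr. Over the 35 libraries, on log2(CPM + 0.05), Pearson's r with Ttr passed an adjusted permutation p of 0.05 for Folr1, Sostdc1, Kl, Slc4a5, Otx2, Cldn2 and Aqp1, all with a positive r, where 0.575% of the 18252 genes ranked beside Ttr did so. An r of at least 0.7 was found for 6 of the 9 and for 0.0712% of the genes ranked. The median r was 0.721 over the 9 genes and −0.0161 over all of them. A gene needed a mean level of 0.1 CPM to be ranked, except that Cldn2 (mean 0.0269 CPM) was kept in as a member. Because the libraries are of whole tissue, fewer cells of a type and less RNA per cell cannot be told apart.

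Folr1, the folate receptor through which the plexus moves folate into the cerebrospinal fluid, had the highest r of all genes ranked, 0.877 (Spearman's rho 0.843, permutation p = 1e-05, the smallest that 100000 permutations can give, adjusted p = 0.00961, n = 35). Its level ran from 0 counts in 1 Htt+/+ Hdac2 WT library to 1.65 CPM. If counts are independent, that 0 allows up to 3 counts or about 0.0532 CPM. Group medians were 0.452, 0.299, 0.178 and 0.294 CPM in Htt+/+ WT, HttQ111/+ WT, Htt+/+ KO and HttQ111/+ KO. The 2 libraries highest in Ttr were also the 2 highest in Folr1. Without the 2 libraries farthest from the median of Ttr, which were replicates 9 and 1 of Htt+/+ Hdac2 WT, r was 0.847. Within the 5 extraction dates that held 6 libraries, r was 0.773 to 0.954, and within the 4 genotype groups 0.771 to 0.944.

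Sostdc1, a secreted antagonist of BMP and Wnt signals, ranked seventh with r 0.793 (rho 0.805, adjusted permutation p = 0.00961, n = 35). It ran from 0 to 1.15 CPM (median 0.218 CPM), and r was 0.772 without the 2 farthest libraries and 0.530 to 0.921 within dates. Kl encodes klotho, a membrane protein that serves as coreceptor for FGF23 and is shed into the fluid, and it ranked eighth with r 0.782 (rho 0.743, adjusted permutation p = 0.00961, n = 35). It ran from 1.12 to 10.5 CPM (median 2.87 CPM), never fell to 0, and had r 0.719 without the 2 farthest libraries and 0.547 to 0.845 within dates. Otx2, the homeodomain regulator, ran from 0 counts in 2 libraries to 1.91 CPM and had r 0.721 (rho 0.702, adjusted permutation p = 0.00961, n = 35), which became 0.642 without the 2 farthest and was 0.355 to 0.955 within dates. Kl, Otx2, Slc4a5 and Sostdc1 had the same 3 libraries at the top as Ttr did.

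The transport and junction genes followed less evenly. Slc4a5, a sodium bicarbonate cotransporter of the epithelium, ran from 0.0373 to 1.21 CPM with r 0.742 (rho 0.699, adjusted permutation p = 0.00961, n = 35). Its r was positive within 4 of 5 dates (−0.0118 to 0.929) and within 3 of 4 groups. Aqp1, the water channel of the membrane that faces the ventricle, ran from 0.0341 to 1.19 CPM with r 0.609 (rho 0.629, adjusted permutation p = 0.0402, n = 35), and its r was also positive within 4 of 5 dates (−0.514 to 0.898) but within all 4 groups (0.535 to 0.738). Cldn2, a pore-forming claudin of the tight junctions, had 0 counts in 22 of 35 libraries and at most 11 counts, or 0.142 CPM. Its r of 0.712 (rho 0.716, adjusted permutation p = 0.00961, n = 35) rests on the 13 libraries with any count, and 12 of those 13 had over 10 CPM of Ttr.

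**Figure D2:**
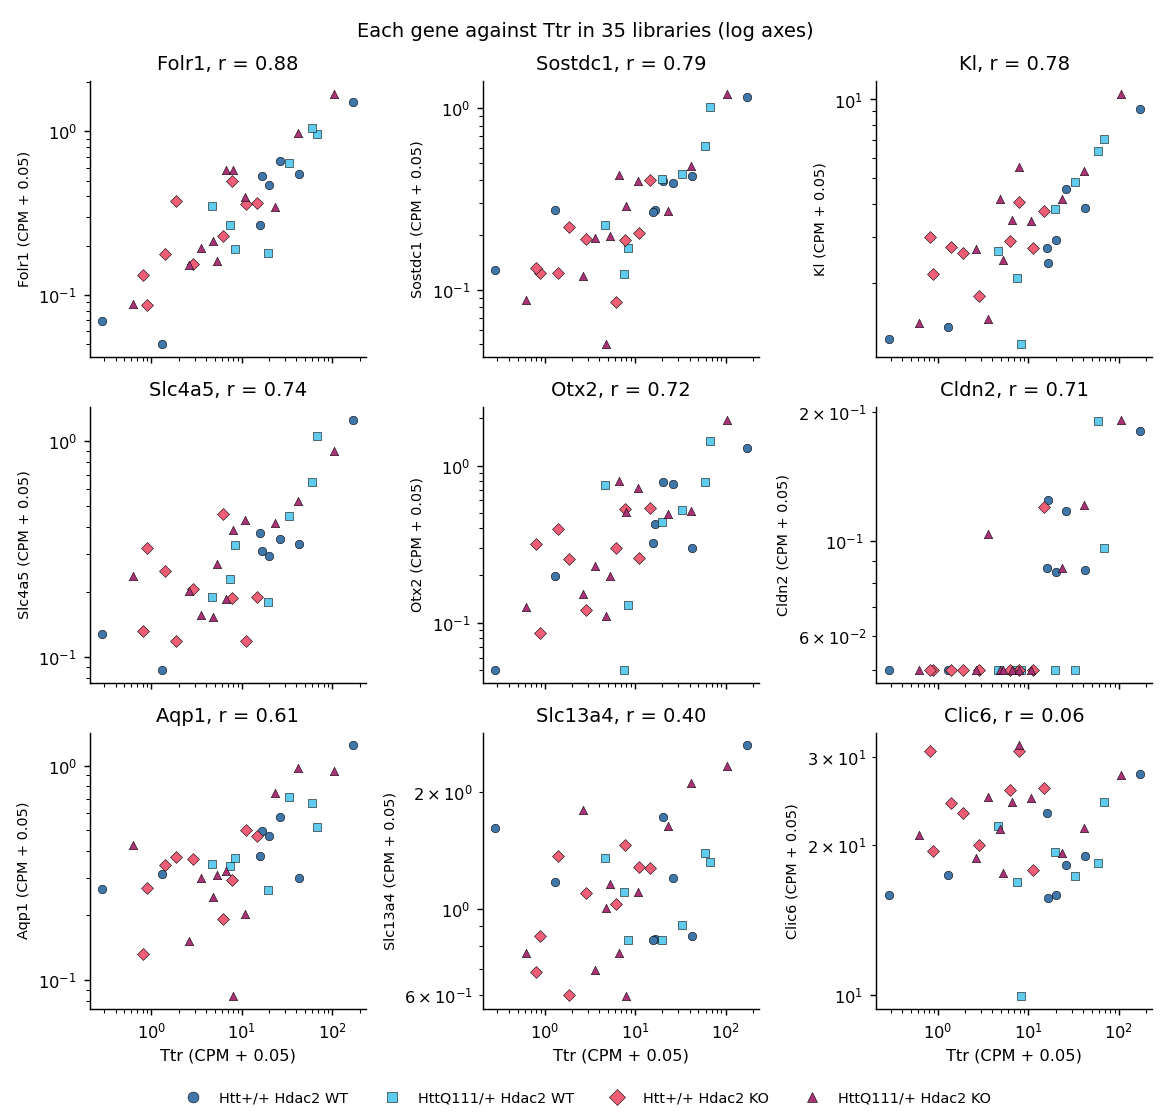
Level of each of the 9 other genes against that of Ttr (CPM + 0.05, log axes) over 35 libraries, with marker and colour for genotype group. Folr1, Sostdc1, Kl, Slc4a5, Otx2, Aqp1 and Cldn2 climb with Ttr, while Clic6 runs flat between 9.92 and 31.5 CPM and Slc13a4 climbs weakly.

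Slc13a4 and Clic6 stood outside that pattern. Slc13a4, a sodium-coupled sulfate transporter, ran from 0.545 to 2.59 CPM with r 0.404 (rho 0.354, permutation p = 0.0158, adjusted p = 0.140, n = 35), which ranked 1135. Without the 2 libraries farthest from the median of Ttr its r was 0.431. Its 2 highest libraries were those of Ttr, and without them r was 0.210. Clic6, of the chloride intracellular channel family, had r 0.0623 (rho 0.0014, adjusted permutation p = 0.874, n = 35) and ranked 7139. It was high throughout, from 9.92 to 31.5 CPM (median 20.8 CPM), a 3.18-fold span where Ttr had 728-fold. Its 3 highest libraries were all KO, and none of them was among the 3 highest in Ttr. In each WT group the library highest in Clic6 was also the highest in Ttr, replicate 1 of Htt+/+ and replicate 5 of HttQ111/+. In neither KO group was that so. In the library with the least Ttr, Clic6 still stood at 15.8 CPM. With group means taken out, its r with Ttr was 0.329, and within groups it was −0.0128 to 0.604.

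**Figure D3:**
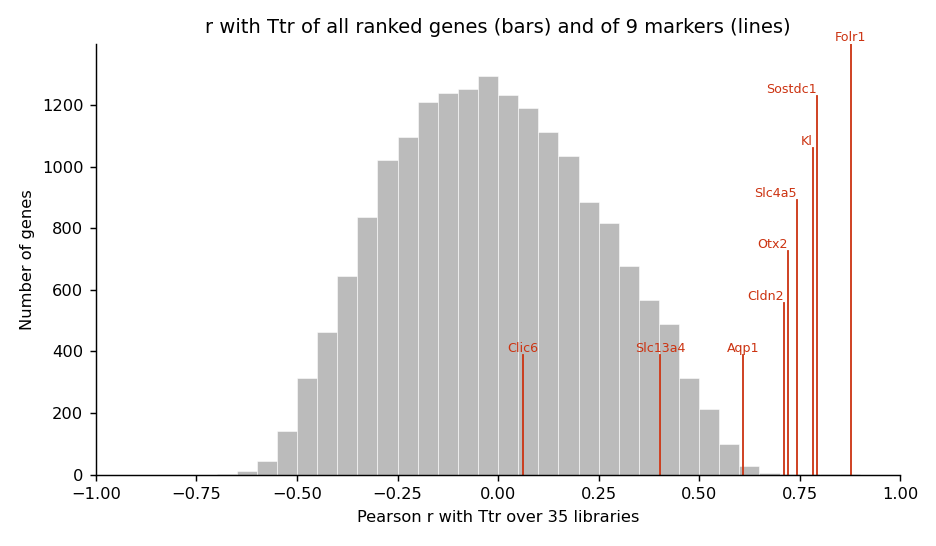
Pearson's r with Ttr of all genes ranked (histogram, number of genes per bin of r) with the 9 other choroid plexus genes as vertical lines. Folr1, Sostdc1, Kl, Slc4a5, Otx2, Cldn2 and Aqp1 lie in the right tail, at 0.609 to 0.877. Slc13a4 lies lower, at 0.404 (percentile 93.8), and Clic6 lies inside the bulk, at 0.0623 (percentile 60.9).

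The 9 genes were compared with each other as well. Over their 36 pairs r ran from −0.191 to 0.845 with a median of 0.554, given as a description since all pairs share the same 35 libraries. Kl and Folr1 had an r of 0.845, and Otx2 and Sostdc1 of 0.803. Clic6 had r 0.499 with Kl and 0.439 with Otx2 although it had 0.0623 with Ttr, and −0.191 with Aqp1. Clic6 thus went with some of the genes that followed Ttr without following Ttr itself.

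A straight line through the 35 libraries shows how much of each gene went with Ttr in plain CPM. Per 100 CPM of Ttr, Kl rose by 5.32 ± 0.546 CPM (slope ± SE), Folr1 by 1.01 ± 0.0914 CPM, Slc4a5 by 0.695 ± 0.0576 CPM and Clic6 by 3.05 ± 2.41 CPM. The level that the line leaves at a Ttr of 0, as a share of the gene's mean, was 21.8% for Cldn2, 44.0% for Sostdc1, 45.2% for Folr1, 49.7% for Slc4a5, 54.1% for Otx2, 66.0% for Aqp1, 68.0% for Kl, 82.3% for Slc13a4 and 96.9% for Clic6. These shares are a description, and the line is steered by the few libraries rich in Ttr. Without the top 2 libraries the share was 2.22% for Cldn2, 69.2% for Kl and 102% for Clic6.

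Per kilobase of exon, so that genes can be set beside each other, median levels were 6.60 CPM per kb for Ttr, 5.32 for Clic6, 0.308 for Kl, 0.233 for Slc13a4, 0.130 for Folr1, 0.122 for Sostdc1, 0.114 for Aqp1, 0.0822 for Otx2, 0.0382 for Slc4a5 and 0 for Cldn2. Ttr and Clic6 were thus far above the rest, and Ttr alone ran from 0.198 to 144 CPM per kb. Neighbours in this order from Kl downwards overlapped widely in range across libraries.

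**Figure D4:**
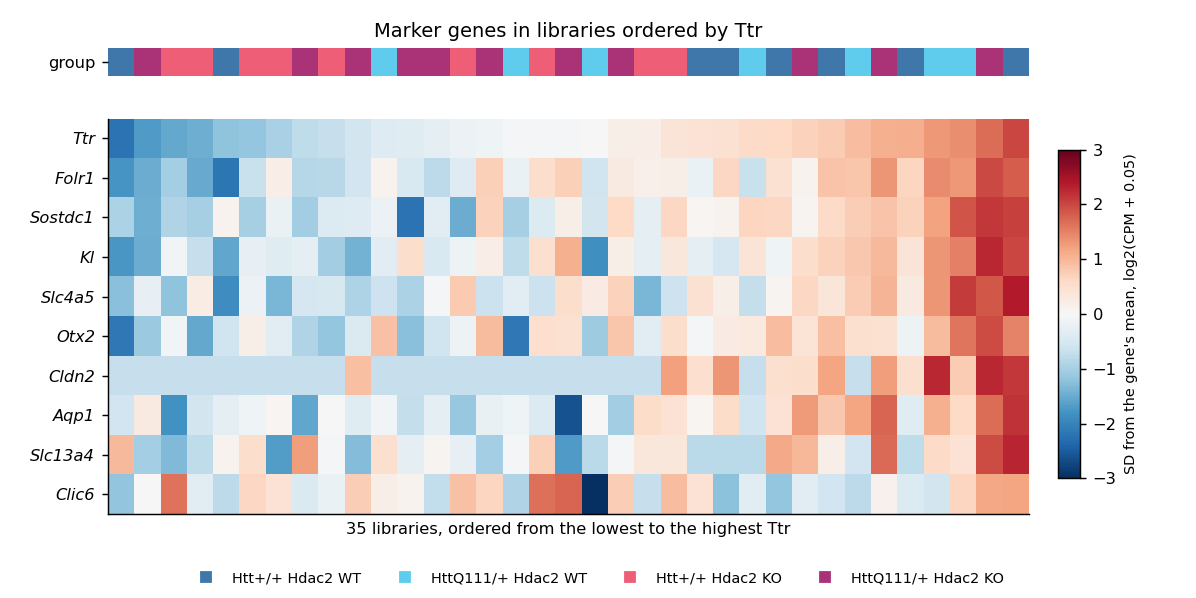
Levels of the 10 genes in each library, as SDs from the gene's own mean of log2(CPM + 0.05), clipped at 3 in either direction, with libraries ordered from lowest to highest Ttr. Folr1, Kl, Sostdc1, Otx2, Slc4a5 and Cldn2 turn from low to high in the order of Ttr, while Clic6 keeps no order.

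The genes nearest to Ttr among all those ranked were read without regard to any list. Of the 20 with the highest r, 5 were members (Folr1, Sostdc1, Kl, Slc4a5 and Otx2, Cldn2 being below the level needed for an unlisted gene). Kcnj13, an inward rectifier potassium channel (r 0.868), Kcne2, a potassium channel subunit (0.816), Calml4, a calmodulin-like protein (0.812), Krt18, an epithelial keratin (0.766), and Prlr, the prolactin receptor (0.748), belong to a longer list of plexus genes. 1500015O10Rik (0.852), 1110059M19Rik (0.832) and Ccdc135 (0.753), the last named for its coiled coil, completed the ranks above 0.75. Below them came genes of higher level that are on no list here, from Uprt (0.694) and Gpalpp1 (0.670) over Fyttd1, Slc9a7, Gdap1 and Snx13 to Gm7389 (0.650). The 5 lowest were Xlr (−0.660), Tpst2 (−0.659), Dda1 (−0.641), Cxxc1 (−0.636) and Alkbh4 (−0.632).

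Other lists of markers gave the neighbours of the plexus. Of 24 further plexus genes ranked, 12 had an r with Ttr of at least 0.5, as had 1.99% of the 18252 genes, 9 passed the adjusted permutation p, and the median r was 0.511. Beside those named above, F5, coagulation factor V, had r 0.648, Lbp, which binds lipopolysaccharide, 0.642, and Tmem72 0.599. Enpp2, the lysophospholipase autotaxin, lay just under 0.5 with r 0.497 at a mean of 323 CPM (rank 377, adjusted permutation p = 0.0740). Others of the list had r near or below 0, among them Igf2, a growth factor that meninges also make, with −0.0065, and Rdh5, a retinol dehydrogenase, with −0.401. Cdh1, an epithelial cadherin, was at 0 in 26 libraries.
Of 15 ependymal genes, which mark the ciliated cells that line the ventricle, 3 had an r of at least 0.5 (Ccdc153 0.552, Hydin 0.527 and Dnah11 0.502), none passed the adjusted p, and the median was 0.392. Their summed level ran from 14.0 to 65.4 CPM, and 4 of the 15 had 0 counts in some library. None of 14 meningeal genes, 10 thalamic or habenular genes, 10 cortical projection genes and 11 MSN genes reached 0.5, and their medians were −0.141, −0.166, 0.0714 and −0.230. The lowest r among them was that of the MSN gene Ppp1r1b, −0.535 (rho −0.606, adjusted permutation p = 0.0572). In the edgeR comparisons described below, Ppp1r1b was called higher in KO than in WT, in Htt+/+ and in HttQ111/+ mice. KO mice carry Cre on a fragment of that gene, and the Ttr medians were lower in KO. How far this r goes with genotype was not tested. The summed level of the cortical list ran from 31.7 to 487 CPM and that of the MSN list from 6168 to 9633 CPM. The part of these other cell types in the levels of the 10 genes was not tested.

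The genotypes were then compared by edgeR's quasi-likelihood test with 9 surrogate variables, fitted to all libraries and adjusted over all genes tested. To enter a comparison, a gene had to reach 6 counts in all libraries of one or the other of its groups. Ttr, Kl, Clic6 and Slc13a4 entered every comparison, Aqp1, Folr1 and Slc4a5 entered some, and Otx2, Sostdc1 and Cldn2 entered none, because each had a library under 6 counts in every group. The counts that follow describe the members that passed this filter and not all 10.

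Between Htt+/+ Hdac2 KO and Htt+/+ Hdac2 WT, Clic6 was higher and Ttr lower in KO, and these were the 2 calls among 5 members tested, where 17.8% of 17126 genes were called. Clic6 was at a lowest, median and highest level of 15.6, 17.7 and 27.6 CPM in Htt+/+ Hdac2 WT and of 17.7, 24.2 and 30.8 CPM in Htt+/+ Hdac2 KO. The ranges overlapped and the KO libraries were mostly the higher ones, with means of 19.1 ± 4.23 CPM (SD, n = 8) and 24.2 ± 4.67 CPM (SD, n = 9). The log2 fold change of Clic6 was 0.39 (SE 0.0976, edgeR adjusted p = 0.00487). That of Ttr was −3.12 (SE 1.05, edgeR adjusted p = 0.0359), with group means of 36.6 ± 55.8 CPM (SD, n = 8) in WT and 5.25 ± 5.03 CPM (SD, n = 9) in KO.
Tested without a model, the Ttr difference did not pass 0.05 with all libraries kept. On log2(CPM + 0.05) the group means differed by −1.85, and an exact two-sided permutation test gave p = 0.119 (adjusted over the 5 comparisons 0.321). With each of 17 libraries left out in turn, the exact permutation p was 0.0143 to 0.239 and passed 0.05 in 1 case. That case was without Htt+/+ Hdac2 WT replicate 9, the library lowest in Ttr, with a difference of −2.62. Without replicate 1 of that group, the library highest in Ttr, the difference was −1.30 (exact permutation p = 0.239). The edgeR call of Ttr was lost without replicate 2 or 7 of Htt+/+ Hdac2 WT (edgeR adjusted p = 0.0918 and 0.0695) or without replicate 2, 6 or 9 of Htt+/+ Hdac2 KO (0.0543, 0.0568 and 0.0545). When the extraction date stood in the model and the surrogate variables did not, the fitted change was 0.22 (edgeR adjusted p = 0.962). That fit links KO to WT only through 25 and 27 May, with 1 KO library on each. Kl (−0.30), Slc13a4 (−0.35) and Aqp1 (−1.04) gave edgeR adjusted p of 0.674, 0.585 and 0.271. With a looser filter of 6 counts in at least 7 libraries, 9 members were tested and Clic6 was the 1 call, against 16.6% of genes, and Ttr was at −2.62 (edgeR adjusted p = 0.0644).

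In HttQ111/+ mice Clic6 was again higher in KO, the 1 call among 7 members tested, where 16.5% of 17169 genes were called. Clic6 had a lowest, median and highest level of 9.92, 18.4 and 24.2 CPM in HttQ111/+ Hdac2 WT and of 17.5, 21.5 and 31.5 CPM in HttQ111/+ Hdac2 KO. The ranges overlapped here too, and the log2 fold change was 0.37 (SE 0.0854, edgeR adjusted p = 0.00221). Ttr was at −0.46 (SE 0.865, edgeR adjusted p = 0.792), with an exact permutation p of 0.193 for a difference of −1.21 in mean log2 level. Folr1 (0.13), Kl (0.26), Aqp1 (−0.12), Slc4a5 (−0.17) and Slc13a4 (0.22) all had edgeR adjusted p of 0.652 or more.
Within the 2 dates that held both genotypes, Clic6 was at 30.7 CPM in the KO library of 27 May, where the 3 Htt+/+ Hdac2 WT libraries had 15.6 to 18.2 CPM, and at 27.5 CPM in that of 25 May, where the 2 HttQ111/+ Hdac2 WT libraries had 9.92 and 17.3 CPM. The higher level in KO thus appeared on both dates, with 1 KO library on each. The KO library of 25 May was also the second highest of all in Ttr, at 104 CPM. The 9.92 CPM beside it was the lowest Clic6 level of all libraries and is flagged below as far from its group. Without any surrogate variable the fitted change of Clic6 was 0.34 (edgeR adjusted p = 0.0724) in Htt+/+ and 0.32 (edgeR adjusted p = 0.117) in HttQ111/+ mice.

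**Figure D5:**
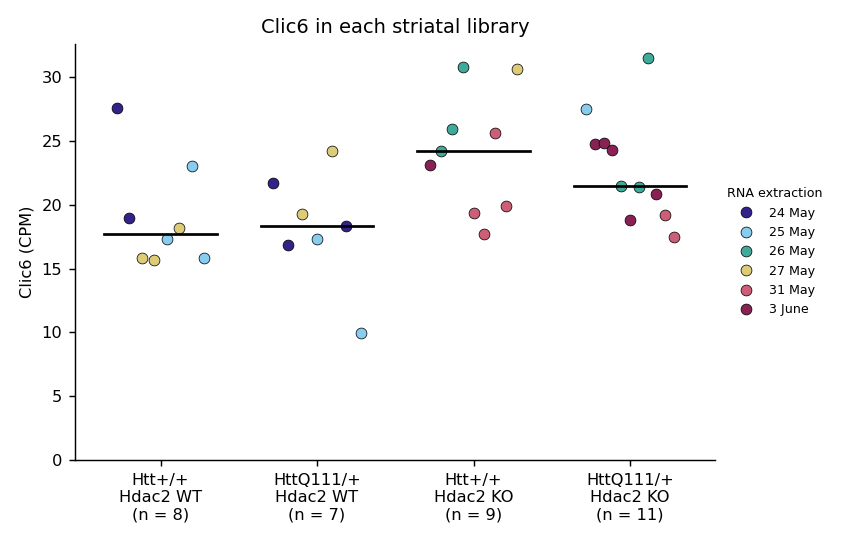
Clic6 level of each of the 35 libraries (CPM, linear axis from 0) in the 4 genotype groups, with bars at group medians and points coloured by extraction date. Both KO groups sit higher, with medians of 24.2 and 21.5 CPM against 17.7 and 18.4 CPM, and all ranges overlap.

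None of the members that could be tested was called for the HttQ111 allele. On the Hdac2 WT background 0 of 7 were called, and 0 had an unadjusted p under 0.05, where 0.403% of 17133 genes were called. Ttr was at a log2 fold change of −1.37 (SE 0.954, edgeR adjusted p = 0.655), while its plain log2 means differed by 0.65 in the other direction (exact permutation p = 0.614), or by −0.12 without Htt+/+ Hdac2 WT replicate 9. On the KO background 0 of 5 were called, with 0 at an unadjusted p under 0.05, where 0.00584% of 17110 genes were called, and Ttr was at 1.25 (SE 0.797, edgeR adjusted p = 0.780). Its plain log2 means differed by 1.29 there (exact permutation p = 0.136, or 0.0416 without HttQ111/+ Hdac2 KO replicate 9). With each of 20 libraries left out in turn, that was the 1 case past 0.05, and the highest exact permutation p was 0.238. Clic6 was at −0.10 and −0.12 on the 2 backgrounds (edgeR adjusted p = 0.753 and 0.754). DESeq2's Wald test also called 0 members in both comparisons.
Whether the effect of the allele differed between backgrounds was tested as an interaction, in which 0 of 7 members were called and 0.00577% of 17346 genes were. Ttr had the largest value of the 7, 2.53 (SE 1.15, unadjusted p = 0.0354, edgeR adjusted p = 0.875), and Clic6 had −0.03. Between HttQ111/+ Hdac2 KO and Htt+/+ Hdac2 WT, which differ in both alleles, Clic6 was the 1 call among 6 members (0.28, SE 0.0919, edgeR adjusted p = 0.0277), where 21.2% of 17088 genes were called. That call was lost without replicate 4, 7 or 8 of Htt+/+ Hdac2 WT (edgeR adjusted p = 0.136, 0.0701 and 0.124) or replicate 7, 10 or 11 of HttQ111/+ Hdac2 KO (0.0593, 0.0626 and 0.0504). Ttr was at −1.78 (SE 1.04, edgeR adjusted p = 0.248). The comparisons share groups, so their values are not separate evidence. With the looser filter, 9 members were tested in each of these comparisons, and 1 was called in HttQ111/+ KO against WT (15.1% of all genes), 0 for the allele on the WT background (0.192%), 0 on the KO background (0.0156%) and 1 in HttQ111/+ Hdac2 KO against Htt+/+ Hdac2 WT (19.9%), Clic6 each time.

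The longer plexus list also held calls in both directions. In Htt+/+ Hdac2 KO against Htt+/+ Hdac2 WT, 3 of its 19 tested genes rose and 2 fell, beside 9.06% and 8.79% of all genes. Those that rose were Slc5a5, the sodium iodide symporter (log2 fold change 1.04, edgeR adjusted p = 1.02e-06), Abca4, a retinoid transporter (0.54, edgeR adjusted p = 0.0235), and Rdh5 (0.18, edgeR adjusted p = 0.0442), and those that fell were Car12, a carbonic anhydrase (−0.41, edgeR adjusted p = 0.00887), and Atp2b3, a calcium pump (−0.25, edgeR adjusted p = 0.00203). With Ttr, these 5 genes had r of −0.228, −0.0208, −0.401, 0.266 and 0.526, in the order named. The list's median was 0.02 on the log2 scale, beside 0.00 over all genes. In HttQ111/+ mice Slc5a5 and Rdh5 rose and Atp2b3 fell, of 20 tested, beside 7.68% and 8.86% of all genes. In HttQ111/+ Hdac2 KO against Htt+/+ Hdac2 WT the 5 genes of the first comparison were called again, 3 up and 2 down of 19, beside 10.2% and 11% of all genes. None of the list was called for the HttQ111 allele on either background. Prlr, which followed Ttr closely, was at −0.92 in Htt+/+ mice (edgeR adjusted p = 0.170).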

How the data were processed

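RNA was extracted from the striatum of 35 mice, and stranded poly(A) libraries with ERCC spike-ins were sequenced. Per the labels and the study's methods, the authors aligned reads with GSNAP to GRCm38 with Ensembl annotation and deposited counts of unique alignments per whole gene, made with bedtools. They left out 1 further library. The deposited counts were used as they stand. Totals and tests took no spike-ins (92), no genes with a span of up to 250 nt (6152) and no mitochondrial rRNA (2 genes), which left 32863 genes with 50339179 to 76939791 counts per library. Intervals or floors of 3 counts cover counting error only and take counts as independent. The median total of counts per library exceeds the median of paired-end reads that the paper gives. Both mates of a pair may thus have been counted, and the floor would then be too low.

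Levels are CPM after TMM scaling in edgeR 4.0.16 (R 4.3.3). Genotypes were compared with edgeR's quasi-likelihood F test on all 35 libraries with 9 surrogate variables from svaseq (sva 3.50.0), Benjamini-Hochberg adjusted over all genes tested, with a threshold of 0.05. Genes needed 6 counts in all libraries of 1 of the 2 groups. Groups came from the genotype labels, and replicates are separate mice. Correlations used log2(CPM + 0.05), a mean of at least 0.1 CPM for genes outside the members, and 100000 permutations (numpy 2.4.6), adjusted over all genes ranked. Ttr between groups was also tested by exact permutation. DESeq2 1.42.0 served as an alternative, as did other covariates, filters, scalings and pseudocounts and the removal of each library in turn. The scripts were tested on simulated data. Named are all 10 members, the 20 genes with the highest and 5 with the lowest r with Ttr, and from each marker list its counts and a few members. The members and lists were chosen with earlier results of these data known. After the data were seen, fits without the 2 libraries highest in Ttr were added, and so was an interaction with the looser filter.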

Additional observations from a re-analysis of the deposited data

Results flagged for a closer look

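In 2 cases a member had 1 library far from the rest of its group, among 30 combinations of gene and group examined, where chance alone marks about 1 in 20. HttQ111/+ Hdac2 KO was not examined for any member, because no critical value was held for a group of 11 libraries. In that group replicate 1 had 104 CPM of Ttr, where the next library had 41.4 CPM. Clic6 was lowest in HttQ111/+ Hdac2 WT replicate 7, at 9.92 CPM (497 counts) against 16.8 CPM in the next of the 7 libraries, so that the gap made up 0.590 of the group's range (critical value 0.568). Cldn2 was found in Htt+/+ Hdac2 KO replicate 3 alone among 9 libraries, with 4 counts or 0.07 CPM where the others had 0, so that the gap was the whole range, a value of 1 (critical value 0.493). Any count above 0 gives that value where all other libraries are at 0, and 4 counts lie close to the floor of 3, so the value says little. That library also had the highest Ttr level of its group, 14.7 CPM.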

How the results depend on the processing

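The count of genes with an r with Ttr of at least 0.5 was 7 and stayed at 6 or 7 over 10 alternatives, 7 with replicate number means removed as a replicate block, and at 7 to 8 with each library left out. The median level at a Ttr of 0 went from 54.1% to 52.8% of the mean without the 2 libraries highest in Ttr. Members called in Htt+/+ KO against WT went from 2 to 1 with no surrogate variables, with sex, extraction date or mouse ID series in their place, with the 2 groups alone, with robust empirical Bayes, with no count filter and with the looser one, and to 0 with the replicate block. With no surrogate variables the call lost was that of Clic6. In HttQ111/+ KO against WT, and in HttQ111/+ KO against Htt+/+ WT, the count of 1 went to 0 with no surrogate variables, sex, date, ID series or replicate block. The call of Ttr in Htt+/+ mice held in 7 of 14 alternatives, among them no surrogate variables (−2.80, adjusted p = 0.0151) and DESeq2's Wald test (−2.98, 0.0327). It became 0.22 with date, which turned its direction, −1.85 with ID series (adjusted p = 0.154), −2.17 with the replicate block (0.0624), −1.25 with the 2 groups alone (0.183), −3.12 with robust empirical Bayes (0.0824), −2.55 with no filter (0.109) and −2.62 with the looser filter (0.0644). Its uncalled changes turned direction with date in HttQ111/+ mice (1.81) and in HttQ111/+ KO against Htt+/+ WT (2.00), and for the HttQ111 allele on the WT background with date (0.19), ID series (0.53), the 2 groups alone (0.40) and males (0.017). Clic6 turned there with the 2 groups alone (0.060) and males (0.025). In the fits with date, KO and WT were linked only through 25 and 27 May, which held 1 KO library each. That of 25 May, HttQ111/+ Hdac2 KO replicate 1, had 104 CPM of Ttr, the level next below the highest of all libraries. The cause of these changes of direction was not tested.

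With each library left out, members called ranged from 1 to 2, 1 to 1, 0 to 0, 0 to 0 and 0 to 1 in the 5 comparisons in the order of KO against WT in Htt+/+ and in HttQ111/+ mice, HttQ111/+ against Htt+/+ on WT and on KO, and HttQ111/+ KO against Htt+/+ WT. The log2 fold change of Ttr ranged from −3.58 to −2.45, −0.86 to 0.25, −2.25 to −0.27, 0.49 to 1.63 and −2.35 to −0.95, and the difference in its mean log2 level from −2.62 to −1.30, −1.58 to −0.84, −0.12 to 1.20, 0.92 to 1.66 and −1.33 to −0.012. Clic6 ranged from 0.35 to 0.41 and from 0.33 to 0.45 in the first pair and kept its call each time. The interaction of Ttr was 0.70 to 2.52 over 7 alternatives, with adjusted p of 0.738 or more. None of the other 7 members tested was called under any alternative (lowest adjusted p = 0.0745), and signs changed among 2, 5, 7, 0 and 4 of them. Replicate numbers were shared between groups, with no source that pairs the mice, and same-numbered libraries deviated together (correlation over 0.1) in 2 of 8, 2 of 7, 2 of 6, 2 of 9 and 6 of 8 pairs. Low counts limit what depth can show, above all for Cldn2, with a median of 0 counts and under 6 counts in 32 libraries. Sostdc1 and Otx2 had median counts of 12 and 19, and under 6 counts in 9 and 7 libraries.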
